A study of Mus musculus with 40 samples.

Results

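The genes described here are the mouse zinc finger genes that carry numbers from Zfp900 to Zfp999. Of the 65 protein-coding genes with such symbols, 53 reached 10 counts when the 40 libraries were added up, and these are the members. Of the other 12, 4 had no count in any library. The rule for members uses their symbol and total count. Together they took 525674 counts, or 0.0345% of all counts. They were 53 of 25210 genes with at least 10 counts. The cells were cardiac fibroblasts at passage 1 from C57BL/6J TAK1 fl/fl mice, in which loxP sites flank exon 2 of Map3k7, the gene of the kinase TAK1. Before treatment they were kept in serum with bFGF (20 ng/ml), which all groups share. They received the adenovirus Ad-CMV-LacZ, which leaves the floxed gene in place, or Ad-CMV-iCre, which carries Cre under the CMV promoter. Then, in serum-free medium, they were left without a ligand (Con) or given 1 of 4 ligands: TNFα at 10 ng/ml, IL-1β at 15 ng/ml, bFGF at 20 ng/ml and TGFβ at 10 ng/ml. RNA for poly(A) RNA-seq was taken 24 h later. The 10 groups held 4 libraries each. The LacZ groups are thus floxed, virus-exposed controls. The study's legend describes the replicates as biological replicates from male mice.

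Zfp genes of this kind encode proteins with an array of C2H2 zinc fingers, each a small loop that holds a zinc ion and contacts DNA. Most of those that have a KRAB domain are repressors, which bind TRIM28 and through it the histone methyltransferase SETDB1, so that the DNA near the binding site gains H3K9 methylation. Many of them bind transposable elements. Mouse has large clusters of such genes in which neighbours arose by duplication, so that sequences within a cluster are alike.

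Among the members, 47 had the KRAB A-box pattern in their translated coding sequence and 52 had at least 1 C2H2 finger, with a median of 11 and a maximum of 21. Zfp934, Zfp945, Zfp950, Zfp956, Zfp972 and Zfp974 lacked the KRAB pattern. They lay on 11 chromosomes in 23 groups, where a group is a run of members with gaps of at most 1 Mb. The largest were 11 genes on chromosome 4 (145510759 to 147848366 in GRCm38), 10 genes on chromosome 17 (21567008 to 22867134) and 6 genes on chromosome 2 (176521056 to 178078476). The GC content of their longest transcripts ran from 33.21% to 53.95% with a median of 38.69%, against a median of 49.93% over 16758 protein-coding genes.

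Promoter sequences, 300 bases from 250 before to 50 after the start site, were taken from RefSeq (build GRCm38.p6), which held 54 promoters for 47 of the members. The first 3 below belong to genes whose decreases were among the largest, the fourth to a near copy of the third, and the last to the member with the most GC-rich transcript, whose groups overlapped. Zfp979 lies at chr4:147642459-147642758 on the minus strand, Zfp943 at chr17:21962309-21962608, Zfp970 at chr2:177464492-177464791, Zfp971 at chr2:178023034-178023333 and Zfp956 at chr6:47953140-47953439, the last 4 on the plus strand. Capitals mark CpG dinucleotides.
Zfp979: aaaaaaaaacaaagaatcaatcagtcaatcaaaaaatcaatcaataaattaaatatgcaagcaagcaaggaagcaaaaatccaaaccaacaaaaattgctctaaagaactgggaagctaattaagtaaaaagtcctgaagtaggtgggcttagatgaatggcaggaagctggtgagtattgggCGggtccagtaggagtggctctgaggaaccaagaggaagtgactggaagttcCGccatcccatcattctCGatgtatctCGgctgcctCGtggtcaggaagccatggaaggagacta
Zfp943: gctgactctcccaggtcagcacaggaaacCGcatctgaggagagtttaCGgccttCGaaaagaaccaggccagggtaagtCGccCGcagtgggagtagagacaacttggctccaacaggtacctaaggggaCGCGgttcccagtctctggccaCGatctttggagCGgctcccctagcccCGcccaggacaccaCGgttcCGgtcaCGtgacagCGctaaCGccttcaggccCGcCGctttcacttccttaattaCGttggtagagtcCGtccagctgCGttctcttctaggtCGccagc
Zfp970: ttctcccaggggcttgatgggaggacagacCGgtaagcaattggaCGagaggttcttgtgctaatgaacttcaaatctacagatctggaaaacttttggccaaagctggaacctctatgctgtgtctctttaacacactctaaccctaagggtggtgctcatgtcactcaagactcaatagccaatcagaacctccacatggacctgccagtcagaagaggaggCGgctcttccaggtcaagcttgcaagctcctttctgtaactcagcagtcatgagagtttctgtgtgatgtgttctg
Zfp971: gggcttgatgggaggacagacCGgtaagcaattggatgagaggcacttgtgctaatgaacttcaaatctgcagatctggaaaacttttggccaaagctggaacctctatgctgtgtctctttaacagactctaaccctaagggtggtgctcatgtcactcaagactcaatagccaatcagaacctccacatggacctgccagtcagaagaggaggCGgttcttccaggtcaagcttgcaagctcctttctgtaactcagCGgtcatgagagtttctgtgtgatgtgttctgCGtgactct
Zfp956: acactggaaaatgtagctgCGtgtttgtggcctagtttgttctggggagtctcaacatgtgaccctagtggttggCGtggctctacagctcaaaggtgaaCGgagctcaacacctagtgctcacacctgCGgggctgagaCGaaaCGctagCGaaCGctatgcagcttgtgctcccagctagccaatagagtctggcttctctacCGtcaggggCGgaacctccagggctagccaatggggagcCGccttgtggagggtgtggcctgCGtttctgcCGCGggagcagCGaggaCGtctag

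The promoters were not GC-poor as the transcripts were. Their median GC content was 50.85%, against 52.7% over 32851 RefSeq promoters of that length, and their median number of CpG dinucleotides was 8, against 7. GGGCGG, the GC box, was present on either strand in 37.0% of the member promoters and in 35.7% of all. The AP-1 motif TGANTCA was found in none of the 54 and in 7.8% of all promoters, a κB-type motif of 3 G, 5 letters of any kind and 2 C in 38.9% and 50.8%, and the YY1-type motif AANATGG in 22.2% and 16.1%. GGGCGG and the κB-type motif can share letters, and a match is not a binding site. Pairs of promoters were compared letter by letter without gaps, with shifts of up to 30 bases. Of 1422 pairs, 13 were at least 80% identical, all on the same chromosome, while the median pair was 31.5% identical. The promoters of Zfp970 and Zfp971 were 97.6% identical and those of Zfp979 and its neighbour Zfp982 88.3%. The windows of Zfp942 and Zfp943 overlapped by 194 bases, because these genes start 95 bases apart on opposite strands.

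Library totals ran from 25360947 to 66160732 counts with a median of 36183962. Levels are given as CPM, counts scaled to library size with TMM factors over the 40 libraries. Map3k7, the targeted gene, was lower with iCre in each condition in the means (Con 127 against 153 CPM, bFGF 150 against 199, TGFβ 146 against 227, IL-1β 126 against 220, TNFα 144 against 239). Its difference passed the threshold with TGFβ (log2 fold change −0.67, adjusted p = 0.000984, edgeR's quasi-likelihood test), IL-1β (−0.82, adjusted p = 0.000321) and TNFα (−0.71, adjusted p = 0.000803) and not in Con (−0.28, adjusted p = 0.126) or with bFGF (−0.40, adjusted p = 0.309), where it passed with a block for replicate number (adjusted p = 0.0108 and 0.00625) and its groups did not overlap. DESeq2 called it in Con (adjusted p = 0.0074) and not with bFGF (0.0778). Counts were per gene and Cre removes only the floxed exon, so these values do not measure the extent of the deletion. At the protein level, the paper reported a truncated TAK1 after Ad-CMV-iCre that disappeared with longer culture. The 12 libraries from iCre cells given TNFα, TGFβ or IL-1β stood apart from the other 28 in how level followed GC content. In them the log2 level rose by 0.2 to 0.34 for each 10% of transcript GC, against −0.25 to 0.0 in the others. Mitochondrial transcripts took 0.302% to 0.632% of their counts, against 0.582% to 1.169%, ranges that overlap. The numbers in the library names run group by group and put these 12 last, so library order and treatment cannot be told apart. The 10 fibroblast markers were all present, and their summed level overlapped between these 12 libraries (15351 to 61772 CPM) and the other 28 (17180 to 69713). The lists for other cell types overlapped as well: endothelial 1.29 to 13.1 against 0.747 to 13.3 CPM over 3 markers, leukocyte and macrophage 13.3 to 108 against 13.4 to 150 over 4, pericyte and smooth muscle 270 to 1367 against 61.1 to 1026 over 2, epicardial 0.727 to 6.0 against 0.723 to 6.44 over 2, and cardiomyocyte 0.476 to 19.7 against 0.271 to 110, in which Myh6 stayed under 10 counts. These ranges pool ligands within each set of libraries, so they do not compare iCre with LacZ within a ligand. Since these were bulk samples, fewer cells of a type and less RNA per cell cannot be told apart. The part of GC content, mitochondrial share, library order and these lists in the results was not tested, apart from the GC-corrected fits given beside them.

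In LacZ cells without a ligand the members were present at low to moderate levels. Their summed level was 492 ± 22.8 CPM (SD, n = 4). Per kb of the longest transcript in these 4 libraries, Zfp970 was the most abundant with 28.3 CPM per kb, followed by Zfp984 with 7.99, Zfp943 with 7.67, Zfp950 with 6.81 and Zfp948 with 6.2. Counts cover all exons of a gene, which span 10615 bases in Zfp950 against 4825 in its longest transcript. In Zfp943 they span 4786 against 2741, so the ranks after Zfp970 depend on the length used. Zfp970 encodes a KRAB protein with 14 fingers and lies on chromosome 2 (177464733 to 177478129). How reads that map to several places were counted is not given in the sources used here, so levels of near copies are uncertain. In 20 members over 10% of transcript windows of the read length were shared with other genes, among them Zfp991 (73.61%), Zfp993 (71.57%), Zfp960 (66.23%), Zfp984 (28.98%), Zfp970 (18.99%) and Zfp979 (16.88%). In 16 members, Zfp943, Zfp948 and Zfp954 among them, no window was shared. Exons of 8 members, Zfp984, Zfp956, Zfp941, Zfp934, Zfp953, Zfp983, Zfp963 and Zfp973, overlap another gene on the same strand, and their counts are uncertain to that extent.

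Loss of TAK1 was compared with the LacZ control within each condition. The summed level of the members was 443 ± 22.8 CPM in iCre Con cells (n = 4), with a range of 414.1 to 466.2, below that of LacZ Con cells at 475.6 to 524.1. With bFGF it was 383 ± 54 with iCre and 389 ± 26.6 with LacZ. With TGFβ it was 182 ± 18 against 333 ± 11.2, with IL-1β 200 ± 22.5 against 403 ± 16.1, and with TNFα 179 ± 14.3 against 434 ± 20.3. The 12 iCre libraries with these 3 ligands lay between 164.3 and 233.4 CPM, and all other 28 lay between 316.8 and 524.1, so that they did not overlap.

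**Figure D1:**
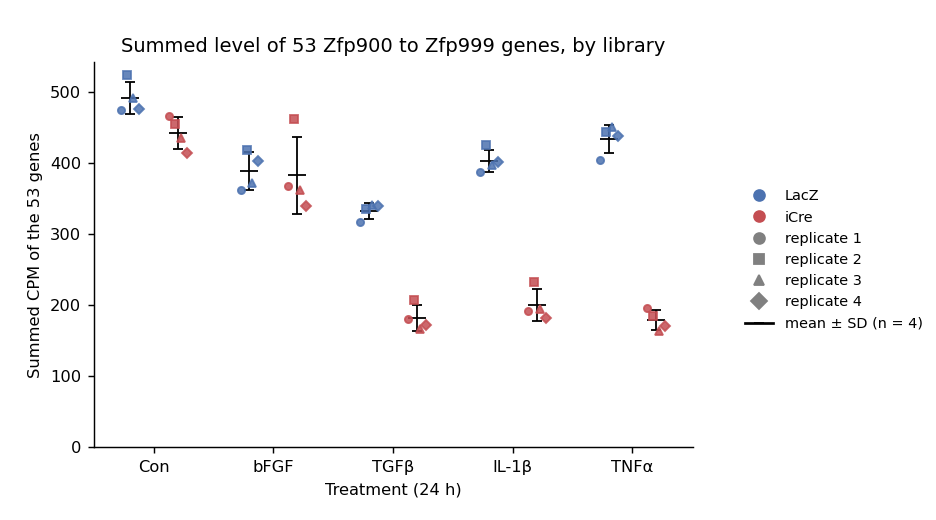
Summed level of the 53 zinc finger genes in CPM (y axis) in each of the 40 libraries (points), by ligand and virus (x axis), with the mean and SD of each group of 4. The iCre libraries of the TNFα, IL-1β and TGFβ groups sit between 164.3 and 233.4 CPM, below every other library.

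With TGFβ, 34 of the 53 members were lower with iCre and 0 were higher (edgeR's quasi-likelihood test, Benjamini-Hochberg adjusted p at most 0.05 over all genes), while 5.89% of all genes tested were lower and 2.51% higher. With IL-1β 36 members were lower and 0 higher, against 9.27% lower and 7.22% higher over all genes. With TNFα 41 were lower and 0 higher, against 13.3% and 15.3%. The median log2 fold change of the members was −1.23, −1.06 and −1.40 for TGFβ, IL-1β and TNFα, beside medians over all genes of 0.00, 0.04 and 0.00. Some members were at 0 in every library of 1 group. With those set to their bound of 3 counts over the group the medians were −1.23, −1.08 and −1.40. In 24, 23 and 26 members with a mean of at least 1 CPM the decrease exceeded 1 on the log2 scale. The same 32 members, or 60.4%, were lower with all 3 ligands, as were 971 of all 25210 genes (3.85%). Of the others, 5 were lower with 2 ligands, 5 with 1 and 11 with none. For TGFβ the count varied with the replicate left out, at 16 without replicate 3, 19 without replicate 4 and 23 without replicate 1. Without replicate 2, 34 members passed the threshold. Fits with fewer libraries also have less power, and its part in these counts was not tested.

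Among members with a mean of at least 1 CPM, the largest decrease in each of these comparisons was that of Zfp979, a gene of the chromosome 4 group (ENSMUSG00000066000, chr4:147611937-147642513, minus strand) whose product has 3 fingers and the KRAB pattern. With TGFβ its level in the 4 LacZ libraries was 7.23, 3.79, 9.70 and 8.14 CPM, and in the 4 iCre libraries 0.827, 0.666, 0.824 and 0.857 CPM. Every iCre library was below every LacZ library, and the iCre libraries were close to each other while the second LacZ library was low. The log2 fold change was −3.20 with an SE of 0.32 (adjusted p = 0.000414). With IL-1β it had 5.93, 4.37, 4.73 and 6.06 CPM in LacZ cells and 0.785, 0.382, 1.18 and 0.642 CPM in iCre cells, a log2 fold change of −2.81 with an SE of 0.29 (adjusted p = 0.000301). With TNFα it had 4.41, 3.25, 6.11 and 5.61 CPM in LacZ cells and 0.610, 0.381, 0.273 and 0.292 CPM in iCre cells, a log2 fold change of −3.61 with an SE of 0.31 (adjusted p = 0.000121). In no comparison of these 3 did the groups overlap. In Con its level was 5.47, 4.06, 6.51 and 6.68 CPM with LacZ and 5.04, 2.57, 6.04 and 3.75 CPM with iCre, which overlap (log2 fold change −0.38, adjusted p = 0.528).

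**Figure D2:**
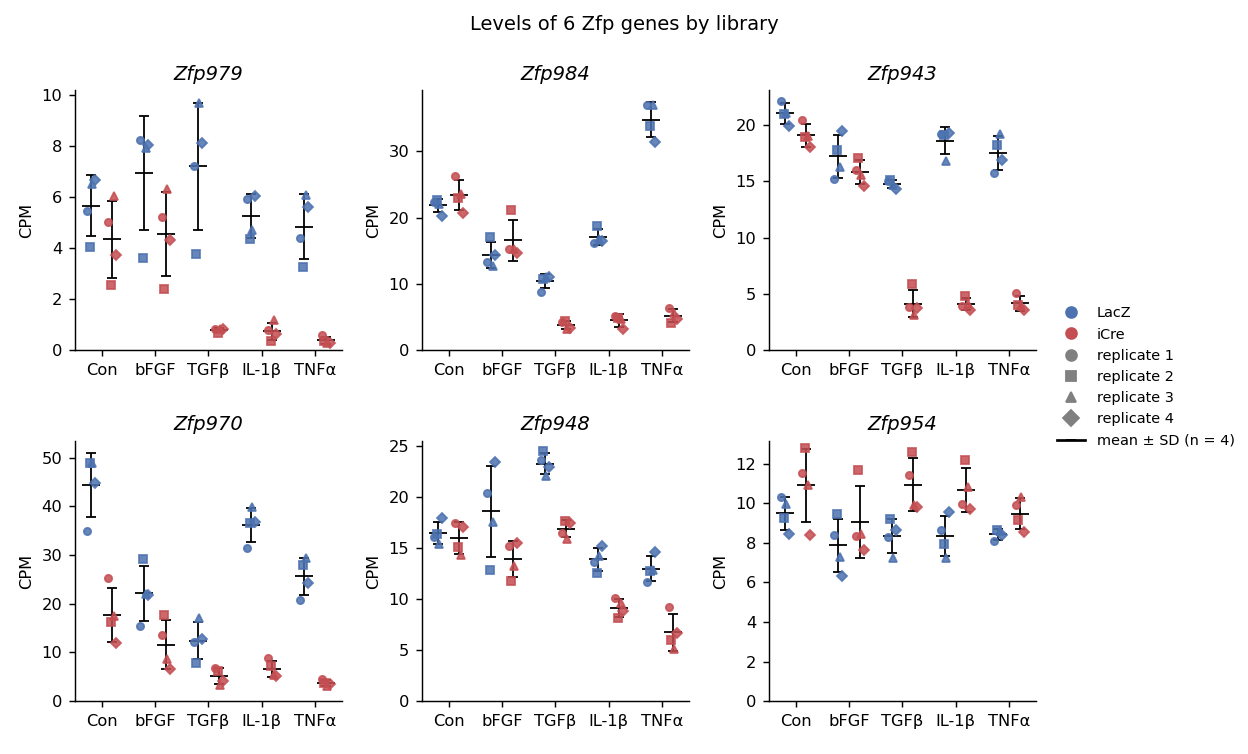
Level in CPM (y axis) of Zfp979, Zfp984, Zfp943, Zfp970, Zfp948 and Zfp954 in each library (points), by ligand and virus (x axis), 4 libraries a group, with group means. Zfp979 is at 0.273 to 1.18 CPM in iCre libraries of the TNFα, TGFβ and IL-1β groups and at 2.39 CPM or more in all others, while the Zfp954 groups with TNFα overlap.

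Other genes of the chromosome 4 group moved the same way, most with TNFα. Of its 11 genes, 6 were lower with iCre in TGFβ, 8 in IL-1β and 9 in TNFα, with median log2 fold changes of −1.52, −1.92 and −2.72. These medians include Zfp980, Zfp981, Zfp985 and Zfp990, which had only 138, 104, 16 and 123 counts over the 40 libraries. The count with IL-1β includes Zfp990, and that with TNFα includes Zfp990 and Zfp980. Zfp984 (chr4:147753974-147809788, minus strand) encodes a KRAB protein with 11 fingers. With TNFα its level was 36.9, 33.8, 36.9 and 31.4 CPM in LacZ cells and 6.33, 4.12, 5.64 and 4.70 CPM in iCre cells. The groups lay far apart, with a log2 fold change of −2.72 and an SE of 0.15 (adjusted p = 4.83e-05). The decrease was smaller with TGFβ (−1.48, SE 0.15, adjusted p = 0.00043) and with IL-1β (−1.92, SE 0.15, adjusted p = 9.72e-05). In Con the level of Zfp984 was 22.3, 22.6, 22.1 and 20.3 CPM with LacZ and 26.2, 23.0, 23.6 and 20.7 CPM with iCre, so no decrease was seen there. Zfp991, which shares most of its sequence with other genes, had 10.1, 5.8, 7.19 and 6.67 CPM in LacZ cells with TNFα and 1.12, 0.500, 0.642 and 1.07 CPM in iCre cells (−3.17, SE 0.29, adjusted p = 0.000157). Zfp992 had a log2 fold change of −2.65 with TNFα (SE 0.26, adjusted p = 0.000218), of −1.95 with IL-1β (adjusted p = 0.000896) and of −1.78 with TGFβ (adjusted p = 0.00304). With TGFβ, Zfp991 (−1.84, adjusted p = 0.00432) missed the threshold without replicate 4 (adjusted p = 0.0573) and Zfp992 without replicate 3 (adjusted p = 0.0591).

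All 10 genes of the chromosome 17 group were lower with each of the 3 ligands, with median log2 fold changes of −1.38 (TGFβ), −1.56 (IL-1β) and −1.67 (TNFα). Zfp943 (chr17:21962552-22071168, plus strand) had 15.0, 15.1, 14.7 and 14.3 CPM in LacZ cells with TGFβ and 3.84, 5.85, 3.11 and 3.79 CPM in iCre cells (−1.87, SE 0.18, adjusted p = 0.000319). With IL-1β it changed by −2.19 on the log2 scale (SE 0.12, adjusted p = 3.8e-05) and with TNFα −2.05 (SE 0.14, adjusted p = 6.04e-05). It shares no window with another gene, although exons of a gene on the opposite strand overlap it, and whether the counting used strand is not given in the sources used here. Its divergent neighbour Zfp942 (chr17:21926960-21962464, minus strand) had nearly the same values, −1.98, −2.05 and −1.96, all past the threshold. Zfp994 fell by 2.05, 2.14 and 2.45 on the log2 scale and Zfp947 by 2.20, 1.69 and 2.13. Zfp948, at the edge of the group, fell least, by 0.49, 0.61 and 0.92 (adjusted p = 0.00766, 0.00528 and 0.00464). With TGFβ it had 23.6, 24.5, 22.1 and 23.0 CPM in LacZ cells and 16.5, 17.7, 15.9 and 17.5 CPM in iCre cells, which do not overlap. Its call with TGFβ was lost without replicate 1 (adjusted p = 0.0566), 3 (0.089) or 4 (0.0715), and that with IL-1β without replicate 3 (0.0515).

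**Figure D3:**
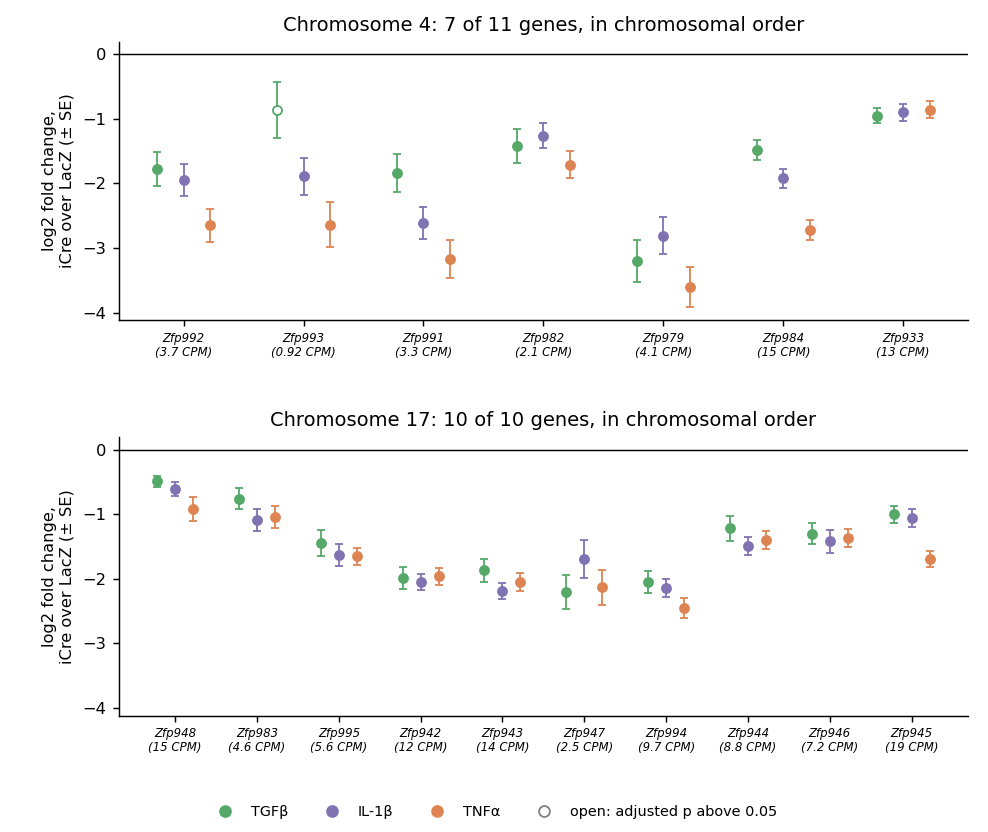
Log2 fold change of iCre against LacZ with its SE (y axis) for genes of the chromosome 4 and chromosome 17 groups in chromosomal order (x axis) with TGFβ, IL-1β and TNFα. On chromosome 17 all 10 genes lie below 0 and Zfp948 at the edge is the smallest change, and on chromosome 4 the values with TNFα reach −3.61 at Zfp979; genes with a mean under 1 CPM other than Zfp993 are not drawn.

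Zfp970, the most abundant member per length, was low with iCre in Con as well. In Con it had 34.9, 48.9, 48.8 and 44.8 CPM with LacZ and 25.2, 16.2, 17.5 and 11.9 CPM with iCre. The groups did not overlap (44.3 ± 6.6 against 17.7 ± 5.52 CPM, n = 4 each), but the log2 fold change of −1.34 (SE 0.21) missed the threshold in edgeR's quasi-likelihood test (adjusted p = 0.0659). DESeq2 called it (adjusted p = 2.23e-06), as did edgeR with a block for replicate number (−1.36, adjusted p = 0.00474) and edgeR without replicate 1 (adjusted p = 0.0308) or 2 (0.0465). With IL-1β it had 31.5, 36.6, 39.9 and 36.8 CPM in LacZ cells and 8.77, 7.29, 5.32 and 5.27 CPM in iCre cells (−2.45, SE 0.17, adjusted p = 4.75e-05). With TNFα it had 20.8, 28, 29.4 and 24.2 CPM in LacZ cells and 4.55, 3.83, 3.19 and 3.6 CPM in iCre cells (−2.73, SE 0.16, adjusted p = 4.83e-05). With TGFβ, which lowered Zfp970 in LacZ cells too, it had 12.2, 7.76, 17.0 and 12.8 CPM and 6.85, 6.18, 3.37 and 4.09 CPM, a smaller difference (−1.31, SE 0.28, adjusted p = 0.0189) that missed the threshold without replicate 1 (adjusted p = 0.0533), 3 (0.156) or 4 (0.169). Of the 6 genes of the chromosome 2 group, 2 were lower with TGFβ and 3 each with IL-1β or TNFα.

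Outside these groups Zfp960 fell by 2.08 with TGFβ (SE 0.37, adjusted p = 0.00806), from 1.66 to 0.389 CPM in the means, by 1.49 with IL-1β (adjusted p = 0.00287) and by 1.95 with TNFα (adjusted p = 0.00097). Its call with TGFβ was lost without replicate 1 (adjusted p = 0.0592) or 3 (0.0737). Zfp958 (chromosome 8) had 9.57, 9.88, 9.51 and 9.85 CPM in LacZ cells with TGFβ and 4.13, 4.18, 3.71 and 3.96 CPM in iCre cells, with no overlap (−1.31, SE 0.11, adjusted p = 0.000197). With IL-1β it changed by −1.16 and with TNFα by −1.23 on the log2 scale, both past the threshold. Zfp975 and Zfp976, on chromosome 7, also fell with all 3 ligands.

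The members whose log2 fold changes were highest included the GC-rich ones, and none passed the threshold as higher in the fit with neither correction nor block. Zfp954 (chr7:7114690-7121488, minus strand), a KRAB gene with a transcript of 50.1% GC, had 8.31, 9.20, 7.21 and 8.67 CPM in LacZ cells with TGFβ and 11.4, 12.6, 9.92 and 9.79 CPM in iCre cells. All iCre libraries were above the LacZ libraries, with a log2 fold change of 0.36 (SE 0.13, adjusted p = 0.132). With a block for replicate number it passed (0.36, adjusted p = 0.0398). Zfp956 (chr6:47953390-47965300, plus strand), which lacks the KRAB pattern and has a transcript of 53.95% GC, had 4.34, 4.54, 4.64 and 4.55 CPM in LacZ cells with TNFα and 3.51, 5.78, 4.54 and 3.92 CPM in iCre cells, which overlap (0.00, SE 0.17, adjusted p = 1.0). With TGFβ it was at 0.23 (SE 0.21, adjusted p = 0.585) and with IL-1β at 0.18 (SE 0.17, adjusted p = 0.536), with overlap in both. Its interaction was 0.54 with TGFβ (adjusted p = 0.278, and 0.179 with the block) and 0.49 with IL-1β (adjusted p = 0.187), where it passed with the block (0.0426) and not with correction and block (0.31, adjusted p = 0.249). Zfp941 had a log2 fold change of 0.84 with TNFα (SE 0.49, adjusted p = 0.242, and 0.0314 with the block) with overlapping groups, at 0.743 and 1.30 CPM in the means. Zfp940 had log2 fold changes of 0.34 with IL-1β (SE 0.27, adjusted p = 0.449) and 0.40 with TNFα (SE 0.25, adjusted p = 0.281), with means of 2.46 to 3.18 CPM with IL-1β.

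The change followed GC content. Across members with a mean of at least 1 CPM, Spearman's rho of the log2 fold change with the GC content of the transcript was 0.78 with TGFβ and 0.72 with IL-1β (44 genes each) and 0.75 with TNFα (45 genes), against 0.26 in Con and 0.27 with bFGF. The genes come from the same 8 libraries in each comparison, share their depth, and in the clusters share sequence. Over 12298 protein-coding genes rho was 0.66, 0.50 and 0.36 for the 3 ligands, so the relation was not one of zinc finger genes alone. In the band of 36% to 38% GC the 13 members had a median of −1.51 with TGFβ and 191 other coding genes one of −0.84, in IL-1β −1.49 against −0.80, and in TNFα −1.95 against −0.69. From 42% to 45% GC, the 6 members had a median of −0.22 with TGFβ and 1674 other genes one of −0.26, in IL-1β −0.41 against −0.23, and in TNFα −0.38 against −0.16. Of 1149 other coding genes within the quartiles of the members' GC content (36.93% to 40.79%), 42.6% were lower under TGFβ, 45% under IL-1β and 46.0% under TNFα, with medians of −0.61, −0.55 and −0.54, and 372 (32.4%) were lower with all 3.

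**Figure D4:**
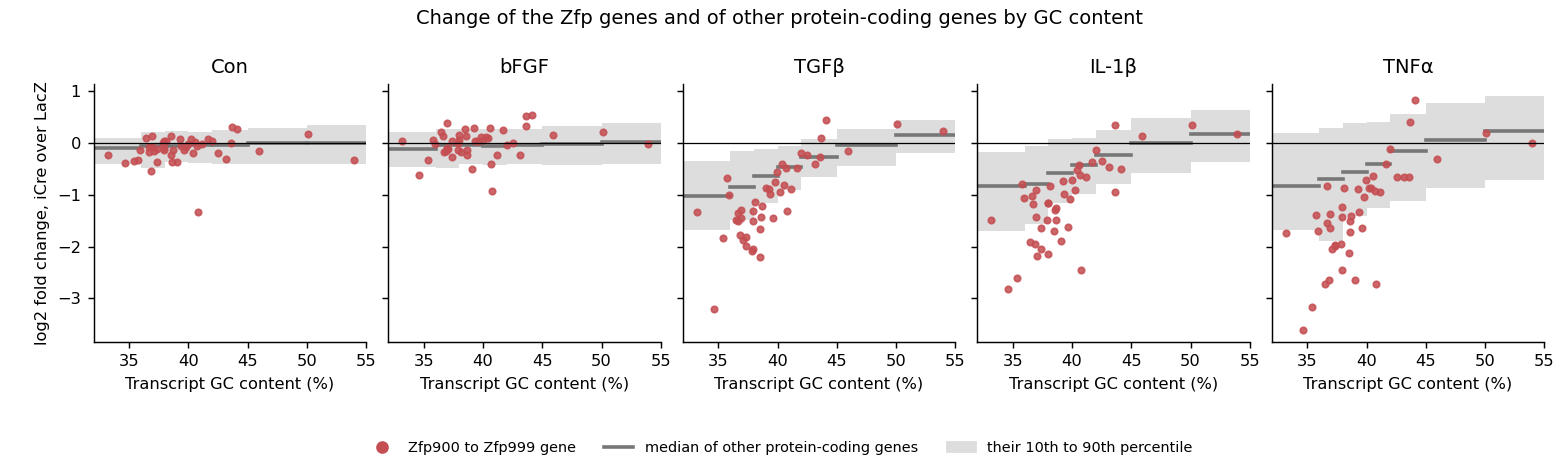
Log2 fold change of iCre against LacZ (y axis) against the GC content of the longest transcript in percent (x axis) for members with a mean of at least 1 CPM (points), in 5 panels by condition, over the range from the 10th to the 90th percentile of other protein-coding genes in bands of GC content (grey). With TGFβ, IL-1β and TNFα the points climb with GC content, with rho of 0.78, 0.72 and 0.75, while in Con (0.26) and bFGF (0.27) they spread around 0.

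A correction took the trend of level on GC content out of each library (a lowess curve of span 0.3 used as an offset). With it, 7 members were lower with TGFβ (0.713% of all genes), 18 with IL-1β (5.7%) and 25 with TNFα (11.5%), the last beside 1 higher (11.6%), Zfp967, which had 149 counts in all libraries together. Since same-numbered libraries of both viruses deviated together, the correction was also fitted with the replicate number as a block. Then TGFβ had 11 members lower and 0 higher, while 3.68% of all genes were lower. IL-1β had 24 lower (12.1% of all genes) and 1 higher (9.18%), and TNFα 25 lower (14.2%) and 1 higher (13.9%). The medians of the members shrank to −0.49, −0.46 and −0.71. The genes called higher were Zfp940 with IL-1β (0.56, adjusted p = 0.0334) and Zfp941 with TNFα (0.99, adjusted p = 0.0181). The block alone left 34, 38 and 42 members lower (9.9%, 14.3% and 15.4% of all genes). The 1149 coding genes of like GC content had medians of −0.04, −0.04 and 0.03 after correction and block, with 114, 241 and 228 lower and 136, 208 and 283 higher.

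After correction and block 11 members (20.8%) were lower with all 3 ligands, against 2.04% of all 24970 genes with a GC value and 72 (6.27%) of the 1149 coding genes of like GC content. They were Zfp942, Zfp943, Zfp947, Zfp994 and Zfp995 on chromosome 17, Zfp979, Zfp984 and Zfp991 on chromosome 4, Zfp975 and Zfp976 on chromosome 7, and Zfp958. Of these, Zfp979 had the largest decrease with each ligand, with a log2 fold change of −2.16 with TGFβ (SE 0.18, adjusted p = 0.00214), −1.86 with IL-1β (adjusted p = 0.00115) and −2.55 with TNFα (adjusted p = 0.00141). Decreases were smaller than without correction in Zfp943, at −1.08, −1.45 and −1.25 (adjusted p = 0.00556, 5.47e-05 and 0.00103), and in Zfp984, at −0.62, −1.15 and −1.86 (adjusted p = 0.0438, 0.000598 and 0.000302). Zfp970 was at −2.05 with IL-1β (adjusted p = 0.000106) and −2.29 with TNFα (adjusted p = 0.000434), whereas with TGFβ it had −0.82 (adjusted p = 0.132). Zfp950, a gene with no KRAB pattern whose decreases of 0.67, 0.79 and 1.39 on the log2 scale had all passed, was at 0.25, 0.08 and −0.45 after correction and block, none past the threshold. Zfp948 went to −0.03 with TGFβ (adjusted p = 0.913). Of the chromosome 17 group 5, 8 and 8 genes were still lower with TGFβ, IL-1β and TNFα, and of the chromosome 4 group 3, 7 and 6. With the correction and no block, 5 of the 11 genes missed the threshold with at least 1 ligand, Zfp984, Zfp991, Zfp976 and Zfp995 with TGFβ (adjusted p = 0.0785, 0.23, 0.0869 and 0.0751) and Zfp975 with IL-1β and TNFα (0.0796 and 0.0554).

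**Figure D5:**
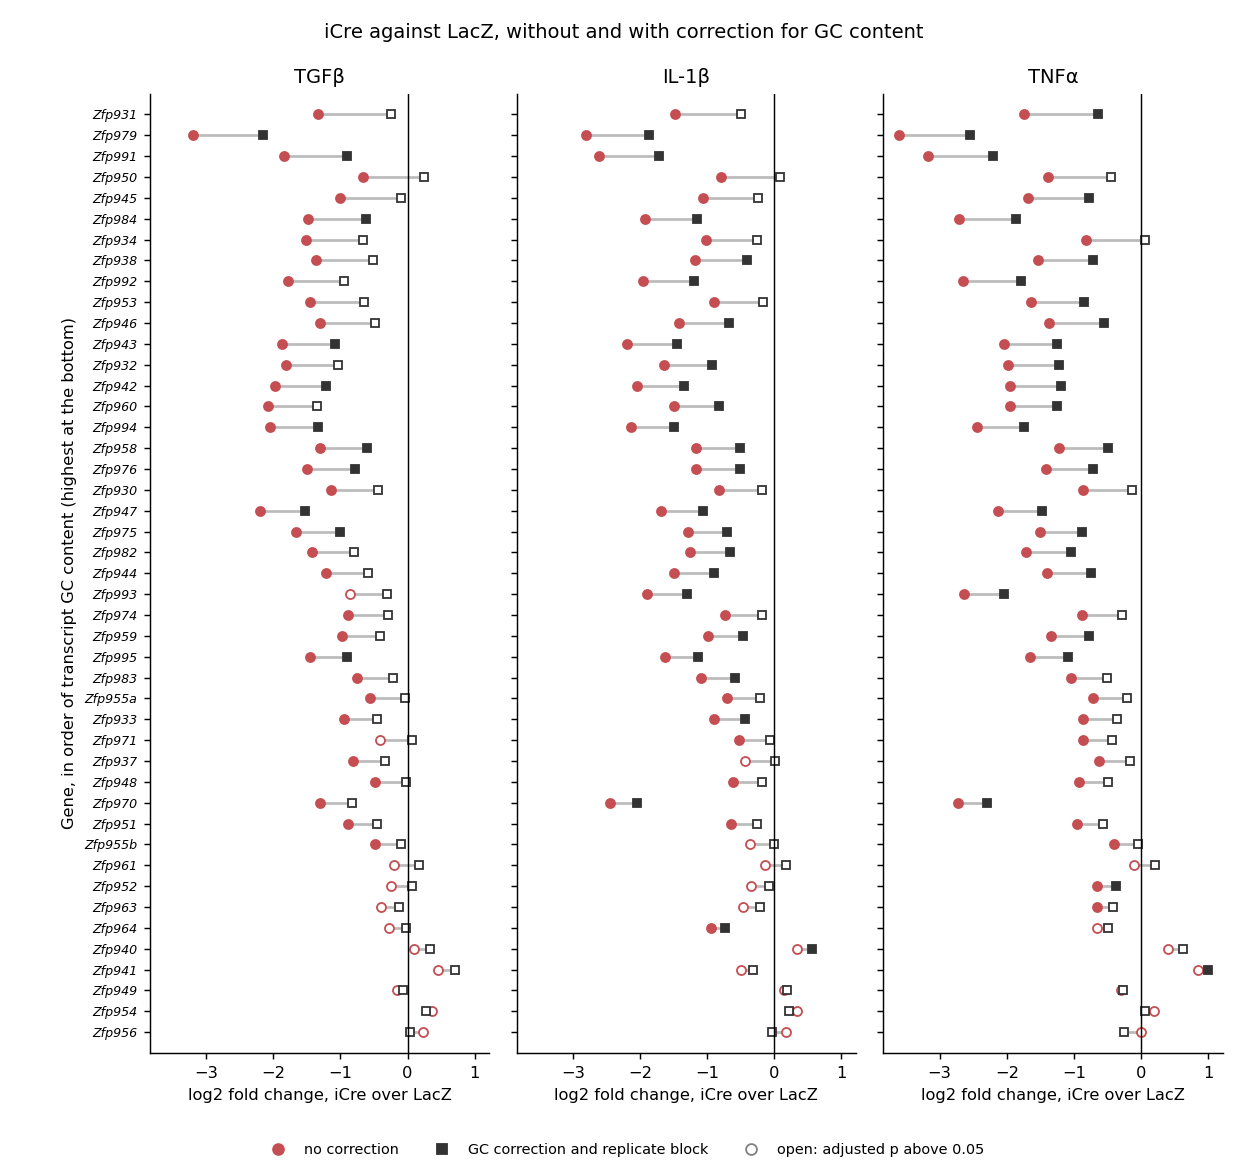
Log2 fold change of iCre against LacZ (x axis) for 45 members in the order of transcript GC content (y axis) with TGFβ, IL-1β and TNFα, without correction (red circles) and with GC correction and replicate block (black squares), open where the adjusted p was over 0.05. The GC-poor genes shift most between the fits, and Zfp979 is at −2.16, −1.86 and −2.55 after correction, lowest in all panels but that of IL-1β, where Zfp970 is at −2.05.

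By structure, 30, 32 and 37 of the 47 members with the KRAB pattern were lower with TGFβ, IL-1β and TNFα, and 4, 4 and 4 of the 6 members without it. Among the 33 members that share at most 10% of their windows with other genes, 22, 24 and 25 were lower, with medians of −1.14, −0.94 and −1.37, and among the 20 that share more, 12, 12 and 16, with medians of −1.40, −1.56 and −1.78. These differences between subsets were not tested.

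Without TGFβ, IL-1β or TNFα few members passed the threshold for a difference between the viruses. In Con 0 members passed the threshold (3 at an unadjusted p of at most 0.05, and 1 by DESeq2), where 0.0754% of all genes did, and the median was −0.12. With bFGF 0 members passed (4 at an unadjusted p of at most 0.05, and 0 by DESeq2), as did 0.0% of all genes, and the median was 0.03. With the block 2 members were lower in Con, Zfp970 (above) and Zfp992 (−0.54, adjusted p = 0.0145), beside 6.26% of all genes. With bFGF and the block 3 were lower, Zfp970 (−0.96, adjusted p = 0.0258), Zfp979 (−0.61, adjusted p = 0.0202) and Zfp948 (−0.39, adjusted p = 0.0384), beside 5.15% of all genes. With the GC correction added, Zfp964 was higher in bFGF (0.55, adjusted p = 0.0377), as were 4.37% of all genes.

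Whether the iCre difference with a ligand differed from that in Con was tested as an interaction over 16 libraries. With TGFβ 26 members had a more negative difference than in Con (3.64% of all genes), with IL-1β 34 (5.01%) and with TNFα 36 (7.87%), and none a more positive one. With bFGF no member passed in either direction (0, and 0 by DESeq2), as for all genes (0.0%), and the 1 member at an unadjusted p of at most 0.05, Zfp964, had a positive value (0.50). Without replicate 1, 2, 3 or 4 the members past the threshold with TGFβ numbered 21, 25, 14 and 17, and with IL-1β 21, 31, 16 and 19. The interaction of Zfp979 was −2.82 with TGFβ (SE 0.45, adjusted p = 0.00112), −2.43 with IL-1β (adjusted p = 0.00157) and −3.24 with TNFα (adjusted p = 0.000158). That of Zfp984 with TNFα was −2.81 (SE 0.17, adjusted p = 2.19e-07). Zfp970 had an interaction of 0.02 with TGFβ (SE 0.37, adjusted p = 1.0) but of −1.12 with IL-1β (adjusted p = 0.0222) and −1.41 with TNFα (adjusted p = 0.00195). The call of Zfp970 with IL-1β was lost with GC correction (−0.74, adjusted p = 0.183) and with correction and block (−0.73, adjusted p = 0.0922). For Zfp979 the correction alone left the interactions with TGFβ (−1.85, adjusted p = 0.0675) and IL-1β (−1.54, adjusted p = 0.063) short of the threshold, while with correction and block both passed (−1.81, adjusted p = 0.00114, and −1.56, adjusted p = 0.00192). With GC correction alone TGFβ had 7 members with a more negative difference (0.565% of all genes) and IL-1β 10 (2.6%), and TNFα had 23 (6.28%) beside 1 more positive (6.31%). With GC correction and block 9, 18 and 28 members had a more negative difference (1.86%, 7.2% and 11.4% of all genes), and 1 a more positive one with TNFα (10.5%).

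Some members also differed between a ligand and Con in LacZ cells. These comparisons share the 4 Con libraries. TGFβ lowered 28 members and raised 1, against 20.3% of all genes lower and 18.0% higher, bFGF lowered 8 and raised 0 (5.24%), IL-1β lowered 11 and raised 0 (10.4%), and TNFα lowered 11 (11.2%) and raised 3 (11.1%). With the block bFGF gave 19 and IL-1β 20 members past the threshold, all lower, beside 12.7% and 16.9% of all genes. Without replicate 1, 2, 3 or 4 the members past the threshold with bFGF numbered 2, 13, 0 and 1, with IL-1β 7, 11, 3 and 2, and with TNFα 9, 11, 6 and 6. The gene raised by TGFβ was Zfp948, from 16.1, 16.4, 15.4 and 18.0 CPM in Con to 23.6, 24.5, 22.1 and 23.0 CPM, with no overlap (log2 fold change 0.52, SE 0.09, adjusted p = 0.0013). The 3 raised by TNFα were the chromosome 4 genes Zfp984 (0.67, SE 0.08, adjusted p = 0.000477), Zfp991 (0.63, SE 0.19, adjusted p = 0.0433) and Zfp993 (0.94, SE 0.21, adjusted p = 0.0115). Zfp993 went from 1.03, 0.834, 1.37 and 1.34 CPM in Con to 2.48, 2.17, 1.85 and 2.27 CPM with TNFα. All 3 were lower with iCre than with LacZ in TNFα. Zfp993 then had 0.585, 0.119, 0.370 and 0.292 CPM (−2.64 against LacZ, SE 0.35, adjusted p = 0.000686). Zfp970 fell in LacZ cells by 1.82 with TGFβ (SE 0.22, adjusted p = 0.000129), by 0.98 with bFGF (adjusted p = 0.0106) and by 0.79 with TNFα (adjusted p = 0.00329), and was at −0.28 with IL-1β (adjusted p = 0.126, and 0.0146 with the block).

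In iCre cells against iCre Con, TGFβ lowered 41 members (19.8% of all genes), IL-1β 39 (7.27%) and TNFα 42 (13.4%), and bFGF 0 (0.658%), where 8 had an unadjusted p of at most 0.05 and 4 passed by DESeq2. None was higher.

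Values for the 319 other protein-coding Zfp genes with a number are given beside those of the members, with no test of the difference. Of them 75, 84 and 99 were lower (5.89%, 9.27% and 13.3% of all genes) and 7, 19 and 41 higher (2.51%, 7.22% and 15.3%) with TGFβ, IL-1β and TNFα, with medians of −0.06, −0.02 and −0.15, and with GC correction and block 22, 44 and 65 were lower, against 3.68%, 12.1% and 14.2% of all genes. Among 20 genes of the KRAB co-repressor machinery TGFβ had 4 lower and 0 higher (5.89% and 2.51% of all genes), IL-1β 5 lower and 3 higher (9.27% and 7.22%), and TNFα 5 lower and 6 higher (13.3% and 15.3%). With GC correction and block TGFβ had 0 lower (3.68%) and 1 higher (2.27%), IL-1β 3 (12.1% of all genes) and 3 (9.18%), and TNFα 4 (14.2%) and 8 (13.9%). Trim28, the protein that KRAB domains bind, had log2 fold changes of 0.26 with TGFβ (adjusted p = 0.0772), 0.31 with IL-1β (adjusted p = 0.0255) and 0.62 with TNFα (adjusted p = 0.0026), going from 180 to 273 CPM in the last. It was at 0.27 in Con as well (adjusted p = 0.146), where it passed with a block for replicate number (adjusted p = 0.0194) and by DESeq2 (0.00598), and with the block it passed under TGFβ (adjusted p = 0.0404). With GC correction and block it was at −0.05 with TGFβ (adjusted p = 0.803), 0.03 with IL-1β (0.851) and 0.31 with TNFα (0.0292), so that the value with TGFβ changed sign. Setdb1 passed the threshold with none of the 3 (0.14, −0.24 and 0.20, adjusted p = 0.315, 0.165 and 0.167). Its interaction with IL-1β was −0.40 (adjusted p = 0.106). That interaction passed with the block (adjusted p = 0.0356), with GC correction and block (−0.45, adjusted p = 0.0281) and by DESeq2 (0.0228). The interactions of Setdb1 with TGFβ and TNFα passed in none of these fits.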

How the data were processed

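Isolated cardiac fibroblasts were treated as described above, and poly(A) RNA was sequenced in single-end runs. The methods of the study name a TruSeq Stranded mRNA kit and the labels NEBNext Ultra II. The authors aligned reads to mm10 with STAR and counted them per gene with HTSeq 0.10.0 after FastQC (0.10.1 in the submitters' processing notes, an earlier version in the study's methods), and deposited 1 table of raw counts, with 4 libraries in each of 10 groups. Strand setting and annotation release are not given in the sources used here. 0 columns of the table stayed unmapped. Totals of 25360947 to 66160732 counts set the precision. The study's legend calls the replicates biological replicates from male mice. Neither it nor the labels say that each came from a separate animal, so p-values measure the spread between these samples, which may be in part technical.

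Gene positions, GC content and coding sequences were from GENCODE M21 (GRCm38) and promoters from RefSeq. KRAB A boxes and C2H2 fingers were found by pattern in translated coding sequences. Levels are CPM after TMM scaling. Comparisons used edgeR 4.0.16 (glmQLFit and glmQLFTest, TMM, only the groups compared) in R 4.3.3 with Benjamini-Hochberg adjustment over 25210 genes with at least 10 counts, threshold 0.05. The SE is the log2 fold change divided by the root of F. The GC correction used 24970 genes with a GC value, its trend fitted on genes of at least 1 CPM. Scripts were tested on simulated data. Alternatives were DESeq2 1.42.0, RLE scaling, other filters, a replicate block, GC correction, 1 fit to all libraries and leaving out each replicate. An older quasi-likelihood fit and a joint GC and length correction were chosen after seeing the data.

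Same-numbered samples were checked for pairing by the correlation of deviations from group means over 13090 genes. It averaged 0.546 for the same number and −0.155 for different ones, and every iCre and LacZ pair of 1 treatment was at 0.30 or more, so the numbers pair the samples, as a property of the data and not of the labels. The lowest value for same-numbered samples of any 2 groups was 0.075.

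The members, lists and tests were chosen with earlier results of these data known. Named are Zfp979, the 5 members highest per kb over all 40 libraries (Zfp954 among them, and not Zfp950, which is among the 5 highest in LacZ Con), the 5 largest decreases and 3 largest increases with iCre per ligand (mean of at least 1 CPM), members called in comparisons with under 6 calls, members lower with 3 ligands in both fits, and the 2 largest changes each way per ligand and interaction. Zfp950, Zfp971, Zfp982 and genes named for a sequence property or an overlap were added for that property, Zfp950 and Zfp945 after their values were seen. The co-repressors Trim28 and Setdb1 and the targeted Map3k7 were named.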

Additional observations from a re-analysis of the deposited data

Results flagged for a closer look

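In 240 groups of 4 libraries (named members and the summed level of all members, 10 groups each), 13 had a highest or lowest library whose gap to its neighbour, as a share of the whole range, was above Dixon's critical value for 4 samples. Chance gives about 1 in 20 such groups. A single low library gave the ratio of 0.929 for Zfp979 in LacZ bFGF cells (3.62 CPM, the others 7.93 to 8.26), 0.926 for Zfp943 in LacZ IL-1β cells (16.8, the others 19.1 to 19.3), 0.844 for Zfp984 in LacZ TGFβ cells (8.80, the others 10.8 to 11.1), 0.861 for Zfp976 in LacZ TNFα cells, 0.835 for Zfp934 in LacZ TNFα cells and 0.831 for Zfp958 in LacZ bFGF cells. A single high library gave 0.897 for Zfp984 in iCre bFGF cells (21.2 CPM, the others 14.6 to 15.3), 0.875 for Zfp934 in iCre bFGF cells, 0.892 for Zfp958 and 0.867 for Zfp953 in LacZ Con cells, 0.886 for Zfp947 in LacZ TGFβ cells, 0.884 for Zfp976 in LacZ bFGF cells and 0.868 for Zfp956 in iCre Con cells.

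The iCre difference differed from that in Con, by the interaction test, for 36 members under TNFα (7.87% of all genes), 34 under IL-1β (5.01%) and 26 under TGFβ (3.64%). With GC correction and block the difference was more negative for 28, 18 and 9. Zfp939, a transcribed unprocessed pseudogene by its annotation with a number in the same range, was not counted among the members and had 4988 counts over the 40 libraries.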

How the results depend on the processing

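Of 238 recomputed counts of members past the threshold 185 stayed within 1.5 times the value given above and 53 did not; the causes were not tested except where fewer libraries entered. For iCre against LacZ in Con (0 given above), DESeq2, the stricter expression filter and the fit to all 40 libraries gave 1, the replicate block, GC correction with block and GC and length correction with block each gave 2, and leaving out a replicate 0 to 1. With bFGF (0) these gave 3 with the block, 4 with GC correction and block, 1 with all 40 libraries and 3 with the length term. With TGFβ (34) GC correction gave 7, with block 11, with the length term 12, and leaving out a replicate 16 to 34. With IL-1β (36) GC correction gave 18 and leaving out a replicate 28 to 35. With TNFα (41) GC correction gave 26 without and with the block and with the length term, and leaving out a replicate 35 to 40. In LacZ cells against Con, bFGF (8) gave 15 by DESeq2, 19 with the block, 18 with GC correction and block, 19 with the length term and 0 to 13 leaving out a replicate, TGFβ (29) 20 to 28 leaving out a replicate, IL-1β (11) 20 with the block and 2 to 11 leaving out a replicate, and TNFα (14) 6 to 11 leaving out a replicate. In iCre cells bFGF against Con (0) gave 4 by DESeq2, 2 with the block, 2 with GC correction and block, 1 with all 40 libraries, 3 with the length term and 0 to 7 leaving out a replicate. The interaction with TGFβ (26) gave 7 with GC correction, 9 with block, 9 with the length term and 14 to 25 leaving out a replicate, that with IL-1β (34) gave 10, 18, 18 and 16 to 31, and that with TNFα 28 to 37 leaving out a replicate. Zfp934 with TNFα, at −0.82 for iCre against LacZ, changed sign with GC correction (0.03, 0.05 with block and 0.02 with the length term). Of 115 values of named members for iCre against LacZ, 17 kept their sign and lost the call with GC correction and 0 gained it, 10 kept their sign and lost it and 8 gained it with GC correction and block, Zfp934 with TNFα lost it with its sign in both, 8 gained it with the block alone, and none changed with no filter or the older fit. Zfp950, which is not among these 115 values, lost its calls with TGFβ and IL-1β together with their sign after correction and block. Members near 1 CPM have few reads, and how reads from windows shared with copies were counted is not given in the sources used here.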

Other observations

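Some members differed between replicate numbers in nearly every group. Zfp941 was lowest in replicate 1 in 10 of 10 groups, at 0.112 CPM in LacZ Con cells where the other libraries had 0.581 to 1.60. Zfp940 and Zfp945 were highest in replicate 2 in 10 of 10 groups, Zfp940 with 3.78 CPM in LacZ Con cells against 2.06 to 2.46. Zfp979 was lowest in replicate 2 in 9 of 10 groups. Of 44 members with a mean of at least 1 CPM, 5 had the same number highest in at least 9 groups and 2 had the same number lowest in at least 9.

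On chromosome 2 the promoters of Zfp967 and Zfp970 were 99.3% identical and those of Zfp967 and Zfp973 99.6%. Zfp967 had 149 counts and Zfp973 86 over all 40 libraries, while every window of read length in Zfp967 and 74.9% of those of Zfp973 were shared with other genes.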
